A study of Drosophila melanogaster with 2 samples.

Results

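The 32 genes described here encode the secreted effectors of the fly's systemic immune response, the antimicrobial peptides and the bomanins, in a chromatin immunoprecipitation sequencing (ChIP-seq) study of the NF-kB factor Dorsal (dl) in Drosophila melanogaster larvae. They were taken by name from a list of 7 drosomycin, 12 bomanin, 4 attacin, 4 cecropin and 2 diptericin genes with metchnikowin (Mtk), defensin (Def) and drosocin (Dro), and all 32 were found among 13968 protein-coding genes on the chromosome arms. The animals were wandering larvae of the third instar, strain dl-small-GFP, males and females pooled, whole animals, carrying a transgene in which isoform dl-RC ends in GFP. Chromatin was recovered with an antibody against GFP per 1 label, while another label names dl as the antibody. Both libraries belong to the same group and are biological replicates 3 and 1, sonicated to 175 to 275 bp and 200 to 275 bp. The labels also name a control experiment, whose files were not used here. No infection or other challenge is named in the labels, and what drives the transgene is not given in the sources used here. A whole-larva profile also cannot tell a region occupied in few cells from one occupied weakly in many.

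Each deposited list gives regions with a summit, the point of highest enrichment, and a signal value from the authors' caller. A pooled list of 29999 candidates was called on both ChIP alignments together, and 2718 of them, the highest by signal, make up the authors' list thresholded for reproducibility (here called reproducible peaks). The candidate lists are labelled as peaks and background, the input for the reproducibility step. A candidate that is not a reproducible peak may therefore be background, and is not by itself a sign of binding. A candidate's rank is its place by signal in the pooled list, so that ranks up to 2718 are reproducible peaks. Signal ran from 73.3 to 2824 with a median of 119 over the 2690 reproducible peaks on the arms, and had a median of 29.2 over the 29970 candidates there. Lists A and B are candidates called on 1 alignment each, and nothing in the sources used here says which is replicate 1 and which is replicate 3. The lists hold no read counts, so the depth is unknown. The intervals given below cover counting of genes or regions only.

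Antimicrobial peptides are small secreted proteins made by the fat body and by epithelia. They damage fungi and bacteria after microbial products trigger the Toll or the Imd pathway, each of which ends in NF-kB factors that enter the nucleus and bind kappaB sites. Dorsal and Dif are the NF-kB factors of the Toll pathway and Relish (Rel) that of Imd. Drosomycin (Drs), Mtk and the bomanins are textbook targets of Toll. The drosomycin-like genes Drsl1 to Drsl6 are grouped with Drs here by family, which does not make each of them a Toll target. The diptericins, attacins, cecropins, Dro and Def are textbook targets of Imd, with input from Toll for some. ChIP reports where a protein is enriched on DNA and says nothing of whether a gene is transcribed.

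Stretches of reference sequence that the results turn on are printed 5′ to 3′, read from the release 6 assembly (RefSeq). The first 3 are the 250 bp before effector genes with kappaB-like letters, shown because such letters stand in the promoters with no reproducible peak over them. Their capitals mark GGG and CC separated by 4 or 5 free bases (GGGNNNNCC and the form 1 base longer) on either strand, overlapping matches run together.
BomT3, chr3R:22086398-22086647, minus strand: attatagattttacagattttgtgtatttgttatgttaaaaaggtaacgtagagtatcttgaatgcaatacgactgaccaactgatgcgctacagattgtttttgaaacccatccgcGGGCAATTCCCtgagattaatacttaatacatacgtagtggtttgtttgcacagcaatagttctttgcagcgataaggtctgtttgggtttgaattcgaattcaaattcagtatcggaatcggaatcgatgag
BomBc3, chr3R:22086825-22087074, plus strand: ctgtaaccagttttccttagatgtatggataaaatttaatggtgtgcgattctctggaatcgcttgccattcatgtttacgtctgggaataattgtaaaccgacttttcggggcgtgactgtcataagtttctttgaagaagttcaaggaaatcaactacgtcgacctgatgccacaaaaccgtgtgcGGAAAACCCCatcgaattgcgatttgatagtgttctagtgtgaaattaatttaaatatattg
CecA2, chr3R:30211906-30212155, plus strand: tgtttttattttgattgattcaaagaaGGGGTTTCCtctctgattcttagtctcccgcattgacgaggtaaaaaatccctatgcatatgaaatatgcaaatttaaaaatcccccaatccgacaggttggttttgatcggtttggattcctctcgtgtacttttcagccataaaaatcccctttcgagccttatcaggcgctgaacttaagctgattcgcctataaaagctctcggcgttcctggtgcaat
The next 3 are the 250 bp before Drs, the standard readout of Toll signalling, the reproducible peak downstream of it, and the longest stretch free of annotated UTR in the only reproducible peak within 1000 bp of an effector gene, which holds the summit. Their capitals mark GATAA on either strand, the core letters of GATA factors, which work beside NF-kB factors at immune genes of the fat body.
Drs, chr3L:3369306-3369555, plus strand: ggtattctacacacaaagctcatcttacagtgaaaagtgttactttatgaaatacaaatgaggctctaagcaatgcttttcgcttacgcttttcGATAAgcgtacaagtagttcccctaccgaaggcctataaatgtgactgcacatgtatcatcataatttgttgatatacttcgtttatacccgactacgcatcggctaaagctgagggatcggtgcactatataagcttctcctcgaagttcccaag
Peak downstream of Drs, chr3L:3384371-3384614, plus strand: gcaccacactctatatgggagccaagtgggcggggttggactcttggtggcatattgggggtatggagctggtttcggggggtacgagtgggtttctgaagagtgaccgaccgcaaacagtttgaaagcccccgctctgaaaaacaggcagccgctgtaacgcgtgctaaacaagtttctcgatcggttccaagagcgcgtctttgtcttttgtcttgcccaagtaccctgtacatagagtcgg
Peak beside Drsl1, chr3L:3334979-3335131, plus strand: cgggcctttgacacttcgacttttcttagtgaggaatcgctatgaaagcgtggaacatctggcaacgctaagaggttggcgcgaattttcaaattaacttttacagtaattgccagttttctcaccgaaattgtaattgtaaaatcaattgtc
The bomanin stretches have 2 overlapping kappaB-like matches each, and CecA2 has 1. A match describes letters and not an occupied site.

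Reproducible peaks were rare at the effector genes themselves. Only Drsl1, a drosomycin-like gene, had a reproducible summit within 1000 bp of its start site, 1 of 32 genes (3.12%, 95% Clopper-Pearson interval 0.0791 to 16.2%), against 10.8% of all protein-coding genes. Among genes with a single annotated start site, as 30 of the 32 have, the share was 6.17%, and the interval of the effector genes covers both values. Within 5000 bp Drsl6 and Def were added, 3 of 32 genes (9.38%, interval 1.98 to 25%) against 19.8%. Within 20000 bp the count was 17 of 32 (53.1%, interval 34.7 to 70.9%) against 49.1%, a share near the background. At the edges of these windows, Drsl1 lay 778 bp and Drsl6 1408 bp from the nearest reproducible summit, Def 2208 bp and BomS6 10036 bp, and AttB 19575 bp and Drsl3 20014 bp. With the 2718 best regions of list A alone, 2 genes had a summit within 1000 bp, Drsl1 and Drsl6. Within 20000 bp the count fell from 17 to 5 when only reproducible peaks at or above the median signal of 119 were used.

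Pooled candidates lay near many of the same genes. A pooled candidate lay within 1000 bp of 18 of 32 genes (56.2%, interval 37.7 to 73.6%) against 40.5% of all protein-coding genes and 33.5% of those with 1 start site, and the interval covers the first of these shares. Within 5000 bp it was 29 of 32 (90.6%, interval 75 to 98%) against 65.0%, and within 20000 bp all 32 against 94.1%. Of the protein-coding genes with a candidate within 1000 bp, 26.6% also had a reproducible summit there, whereas of the 18 effector genes 1 did. That share includes genes with several start sites. Among genes with 1 start site, 3442 had a candidate within 1000 bp and 634 of them a reproducible summit. For effector genes with 1 start site these counts were 17 and 1. The 18 regions within 1000 bp of an effector gene had a median signal of 28.4, close to the 29.2 of all candidates on the arms. Their median rank was 16130, against 9965 over the 9594 candidates within 1000 bp of any protein-coding start site. Taken by gene, the best rank within 1000 bp had a median of 16130 for the 18 effector genes. It was 6755 over the 5660 protein-coding genes with a candidate in that window, which include genes with several start sites. Of the 17 regions within 1000 bp that were not reproducible peaks, 3 had a match in both single lists and 3 in neither. Each count is a share of 17.6% (interval 3.80 to 43.4%). Among the 27280 such candidates on the arms, 4923 (18%) had a match in both lists and 6218 (22.8%) in neither. The interval covers both shares, so the matches given below do not set the effector genes apart. Neighbouring effector genes share candidates, and 7 of the 18 regions within 1000 bp served more than 1 gene, so genes are not independent units in any of these counts. Effector genes are also short, 210 to 1427 bp with a median of 440 bp, against 2164 bp over all protein-coding genes, so a 1000 bp window often spans the whole gene.

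**Figure D1:**
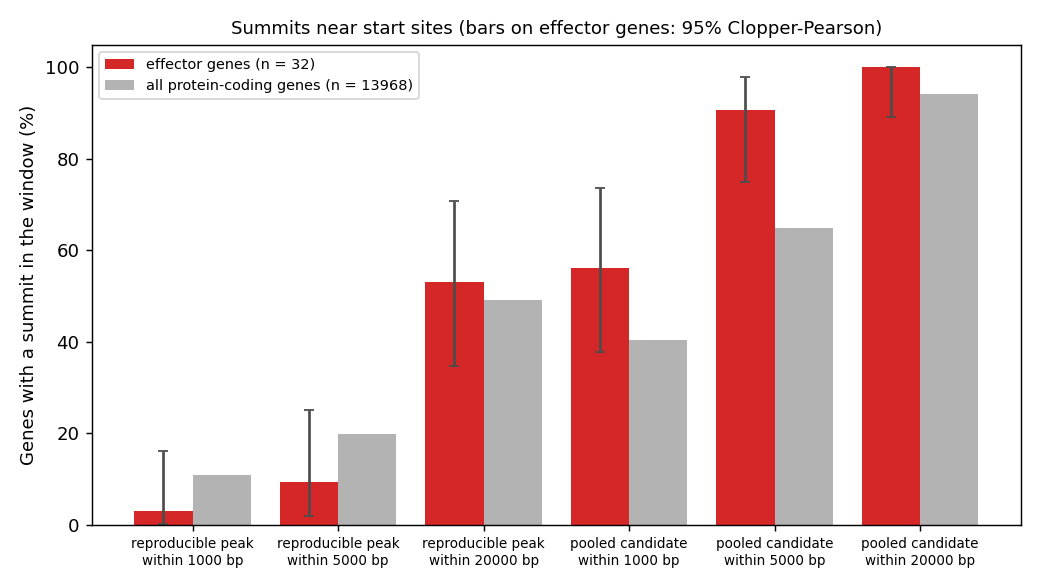
The share of genes (vertical axis, percent) with a summit within each window of a start site is drawn for the 32 effector genes (red, with 95% Clopper-Pearson intervals) and for all 13968 protein-coding genes (grey). For reproducible peaks the red bars stand at 3.12, 9.38 and 53.1% against grey bars at 10.8, 19.8 and 49.1%, and for pooled candidates at 56.2, 90.6 and 100% against 40.5, 65.0 and 94.1%.

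Genes whose bodies lie at most 20000 bp apart were treated as 1 cluster, which gave 11 clusters, 6 of them with more than 1 gene. A reproducible summit lay within 1000 bp of a member in 1 cluster, within 5000 bp in 2 and within 20000 bp in 5. A pooled candidate lay within 1000 bp in 7 clusters and within 5000 bp in 9. In all, 148 candidates lay within 20000 bp of an effector start site. Of these, 7 were reproducible (4.73%, interval 1.92 to 9.50%), against 8.98% of all candidates on the arms. None of the 7 had an effector gene as its nearest gene, and 4 of them had their summit within 150 bp of another gene's start site. The same counts were not made over all reproducible peaks. Of the 18 candidates whose nearest start site was that of an effector gene, none was reproducible, and the best of them had rank 3001. Over the arms 8.98% of all candidates were reproducible, and 18.3% of the 9594 within 1000 bp of any protein-coding start site. With only 18 candidates few would be reproducible at such shares, and the difference was not tested.

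**Figure D2:**
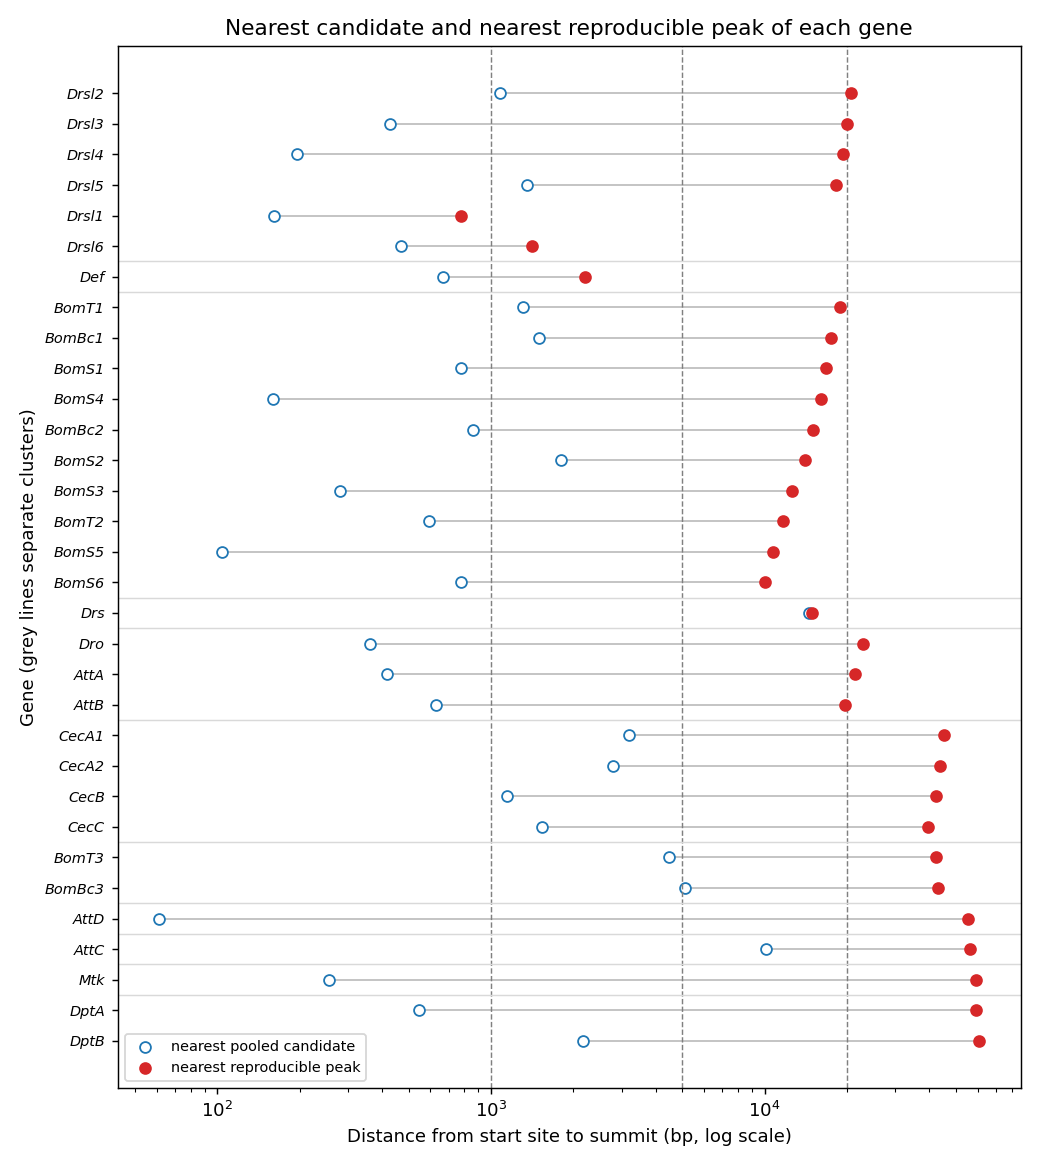
For each of the 32 genes, the distance in bp (log scale) from a start site to the nearest pooled candidate (open blue) and to the nearest reproducible peak (red) is drawn, with dashed lines at 1000, 5000 and 20000 bp and grey lines between clusters. Candidates lie within 1000 bp of 18 genes, while Drsl1, at 778 bp, is the only gene whose red point falls left of the first dashed line.

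The closest reproducible peak to any of the 32 genes lay beside a drosomycin-like gene. Drosomycin is an antifungal peptide, and the drosomycin-like genes Drsl1 to Drsl6 encode relatives of it. The 6 drosomycin-like genes form 1 cluster on 3L, at chr3L:3314349-3336418 in dm6, in which Drsl2, Drsl3, Drsl4 and Drsl5 lie together and Drsl1 and Drsl6 follow. Drsl5 ends at 3317144 and Drsl1 begins at 3335579, a gap just under the 20000 bp limit for a cluster. The reproducible peak beside Drsl1 covered chr3L:3334888-3335131, with a pooled signal of 160 and rank 883. Its signal was 121 in list A, where it had rank 596, and 43.7 in list B, where it had rank 2084, so it stood among the best 2718 regions of both. The summit was intergenic, 778 bp downstream of the Drsl1 start and beyond the end of that gene, and 32 bp from a start site of CG14969. Drsl6 was 1408 bp from the same summit, while Drsl5 was 18229 bp and Drsl2 20661 bp from it.

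The other candidates within 1000 bp of Drsl1 or Drsl6 were weaker and appeared in 1 single list each. A candidate 161 bp from the Drsl1 start had a pooled signal of 30.1 and rank 14057, with a match in list B and none in list A. Another, 264 bp away, had a signal of 23.5 and rank 23715, with a match in list A and none in list B. The candidate 486 bp from the Drsl6 start, with a signal of 57.1 and rank 4020, lay in the 5′ UTR of kst, which encodes the heavy beta spectrin, 44 bp from its start. It ranked 2115 in list A and had no match in list B. At the other end of the cluster, a candidate 195 bp from Drsl4, also 429 bp from Drsl3, had a signal of 26.4 and rank 18549, with rank 9994 in list A and 22895 in list B. Drsl2 and Drsl5 had their nearest pooled candidates 1076 and 1356 bp away. Both single lists placed a candidate beside the Drsl5 start, 62 bp away at rank 6616 in list A and 145 bp away at rank 10260 in list B. List B also placed one 786 bp from Drsl2, at rank 19269.

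Drs itself, the drosomycin gene at chr3L:3369556-3369942, had its nearest pooled candidate 14576 bp away, and 10.8% of protein-coding genes had their nearest candidate as far or farther. Within 20000 bp it had 7 candidates, 1.75 per 10 kb, against 2.25 per 10 kb over the arms. Its nearest reproducible peak, chr3L:3384371-3384614, lay 14937 bp downstream, with a pooled signal of 83.6 and rank 2239. The peak ranked 1957 in list A and 3055 in list B, where it missed the best 2718. It was intergenic and 6225 bp from the closest gene start, which belongs to Ids, an iduronate sulfatase gene. In list B alone the nearest of the best 2718 regions was another one, 19650 bp from Drs. In list B the nearest candidate of any rank was 5857 bp away, at rank 10355. The stretch before Drs printed above held 1 GATAA match and the peak none.

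The bomanins are short secreted peptides required for resistance to many pathogens cleared by the Toll pathway, and 10 of the 12 lie in 1 cluster at chr2R:18381393-18390629. It comprises BomT1, BomBc1, BomS1, BomS4, BomBc2, BomS2, BomS3, BomT2, BomS5 and BomS6. The cluster had 23 candidates within 20000 bp of a member, 4.71 per 10 kb. None of those inside the cluster was reproducible. The strongest within 1000 bp of a bomanin start, 104 bp from BomS5, had a signal of 37.9 and rank 8566, and also lay within 1000 bp of BomT2 and, at 774 bp, of BomS6. It was matched in both single lists, at rank 16316 in list A and 12905 in list B. A candidate in an intron of BomS4, 160 bp from its start, had rank 26616, and was also 778 bp from BomS1 and 862 bp from BomBc2. A candidate in the 3′ UTR of BomS3, 280 bp from a start of that gene and 596 bp from BomT2, had rank 19205 and no match in either list. BomT1, BomBc1 and BomS2 had their nearest pooled candidates 1305, 1492 and 1797 bp away. List A placed weaker ones nearer, 33 bp from BomBc1 at rank 26755, 11 bp from BomBc2 at rank 19321 and 1024 bp from BomS2, and in list B the nearest to BomT1 was 1167 bp away.

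The reproducible peaks nearest to this cluster lay outside it. Of the genes counted here, GstE3, a glutathione S-transferase gene, was the nearest to both. The first covered chr2R:18400543-18400786, 10036 bp from BomS6 and 48 bp from the GstE3 start, with a signal of 99.5 and rank 1758. It ranked 2181 in list A and 1385 in list B. The second, 11291 bp from BomS6, had a signal of 87.4 and rank 2090. Its summit was 1207 bp from the GstE3 start, in an exon of an annotated pseudogene or transposable element, which were not counted as genes. The distance to the first peak was 18821 bp at BomT1, the far end of the cluster, so that all 10 genes count as having a reproducible summit within 20000 bp through the same region. Neither peak reached the median signal of reproducible peaks, and with that stricter list the nearest peak was 23004 bp away.

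BomT3 and BomBc3 form a pair on 3R, transcribed away from each other, at chr3R:22085374-22088501. Their nearest pooled candidates lay 4455 and 5133 bp away, and their nearest reproducible peak 42233 bp from BomT3, in an intron of how, an RNA-binding protein gene. The best of 10 candidates within 20000 bp, 7001 bp from BomBc3, had a signal of 68.4 and rank 3001, and BomBc3 was its nearest gene. It ranked 3110 in list A and 16780 in list B. The kappaB-like matches before both starts, printed above, had no candidate over them.

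Mtk, which encodes an antifungal and antibacterial peptide, lies alone at chr2R:15408846-15409113. It had 5 candidates within 20000 bp, 1.25 per 10 kb, the best of them at rank 15406. The candidate nearest to its start, 255 bp downstream in its 3′ UTR, had a signal of 26.9 and rank 17908, with rank 10141 in list A and no match in list B. The nearest reproducible peak was 59210 bp away, in an intron of unc-5, a netrin receptor gene. Of protein-coding genes, 18% were as far or farther from one.

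Among the Imd effectors, Def had the closest peak. Defensin acts mainly on Gram-positive bacteria, and its gene, chr2R:10054178-10054576, lies within the span of magu on the opposite strand. The reproducible peak 2208 bp upstream of Def covered chr2R:10056662-10056905, 42 bp from a start site of magu, with a signal of 83.4 and rank 2248. It had rank 1218 in list B and 10854 in list A, and with list A alone the nearest of the best regions was 5916 bp away. A second peak, 6362 bp from Def and 139 bp from a start site of COX7C, a cytochrome c oxidase subunit gene, had a signal of 87.8 and rank 2084. Candidates 669 and 786 bp from the Def start had ranks 14282 and 9650 and were each matched in 1 list.

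Dro, AttA and AttB lie together at chr2R:14745961-14750165. Drosocin and the attacins act mainly on Gram-negative bacteria. Candidates near their starts were weak. The one 416 bp from AttA, also within 1000 bp of Dro, had a signal of 31.4 and rank 12798, and was matched at rank 23236 in list A and 24676 in list B. One 573 bp from Dro, 53 bp from a start of jef, had a signal of 30.5 and rank 13678, with rank 7093 in list A and no match in list B. The one in the 3′ UTR of Dro had rank 28775 in the pooled list and 7311 in list A. The one 628 bp from AttB had rank 22936 and no match in either single list. AttA and AttB are 83.8% identical over their gene bodies, with an identical run of up to 85 bp. Regions in or between them are uncertain where reads could come from either copy, and the sequence between them was not compared. The highest signal near any effector gene, 219 at rank 514, lay at the far edge of this cluster's window, at chr2R:14768713-14768828. Its summit was 19575 bp from AttB, in an intron of Spred, an inhibitor of Ras signalling, and 625 bp from a start site there. It ranked 517 in list A and 621 in list B.

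DptA and DptB, the diptericin genes at chr2R:18865765-18867895, had 13 candidates within 20000 bp, and their nearest reproducible peak was 59299 bp away. Their best candidate, 3653 bp from DptA and 34 bp from a start of Jheh3, had a signal of 61.5 and rank 3546. The candidate 547 bp from DptA, 2173 bp from DptB, had a signal of 29.8 and rank 14353, and its summit stood on a start site of CG43071. That distant reproducible peak lay in an exon of lncRNA:CR44468. The single lists differed here. List A placed a region 11085 bp from DptB, 85 bp from a start site of sano, at rank 1769, and list B placed one 10645 bp from DptA, 33 bp from a start site of Jheh1, a juvenile hormone epoxide hydrolase gene, at rank 2035. Those regions lie on opposite sides of the pair, and in the pooled list they ranked 3678 and 4733, outside the reproducible peaks.

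The remaining attacins stood alone. AttC, at chr2R:13393705-13394667, had its nearest pooled candidate 10087 bp away, a distance beyond 10000 bp that 18.5% of protein-coding genes share. List B alone had one 2787 bp from AttC, at rank 26086. AttC had 2 pooled candidates within 20000 bp, the lowest density of the 11 clusters, and its nearest reproducible peak was 56277 bp away, in an intron of lncRNA:CR44206. AttD, at chr3R:17625268-17626086, had the pooled candidate closest to a start site of all effector genes, 61 bp downstream in its coding exon. That candidate had a signal of 23.0 and rank 24677 and no match in either single list. A second, 437 bp away over a threonine tRNA gene, had rank 23024. Its best candidate within 20000 bp, 10041 bp away, had a signal of 55.3 and rank 4227. The nearest reproducible peak was 55111 bp from AttD, in an intron of alt. In list A the nearest candidate was 435 bp upstream, at rank 18177, and in list B 1789 bp upstream.

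The cecropins, membrane-active peptides, form a cluster of CecA1, CecA2, CecB and CecC at chr3R:30210874-30216938. None had a pooled candidate within 1000 bp, and the nearest lay 3200, 2786, 1145 and 1542 bp from their starts in that order. The single lists each placed a weak one closer, 81 bp from CecA1 at rank 28691 in list A and 616 bp from CecC at rank 23859 in list B. The best of the 13 pooled candidates within 20000 bp, 19531 bp from CecA1 and 91 bp from a start of CG9747, had a signal of 34.5 and rank 10470, with a match in list B and none in list A. The nearest reproducible peak was 39480 bp from CecC, with CG18404 as its nearest gene. CecA1 and CecA2 are 81.6% identical with an identical run of up to 75 bp, and values there carry the same uncertainty as at AttA and AttB. The promoter of CecA2 held the only match of the 4 genes to the GGG and CC letters counted here. Sites with other letters were not counted.

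**Figure D3:**
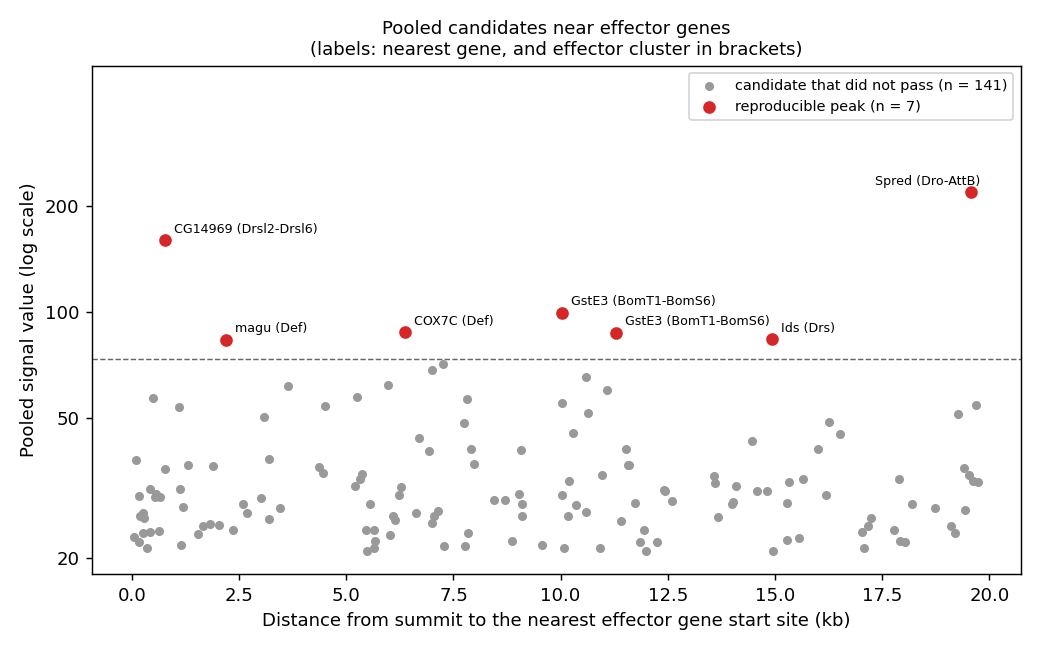
Each of the 148 pooled candidates within 20 kb of an effector start site is drawn by its distance to the nearest such start (kb) and its pooled signal (log scale), with the 7 reproducible peaks in red, labelled by nearest gene and cluster, and a dashed line at 73.3, the lowest signal of any reproducible peak. The red point nearest to an effector start is that at CG14969 beside Drsl1, 778 bp away with a signal of 160, and the highest is that in Spred, with a signal of 219.

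By the rank of the best candidate within 20000 bp, the clusters stood in the order Dro to AttB (514), the drosomycin-like genes (883), the bomanins on 2R (1758), Def (2084), Drs (2239), the bomanin pair on 3R (3001), the diptericins (3546), AttD (4227), the cecropins (10470), Mtk (15406) and AttC (19950). By the nearest reproducible peak the order was the drosomycin-like genes (778 bp), Def (2208 bp), the bomanins on 2R (10036 bp), Drs (14937 bp), Dro to AttB (19575 bp), the cecropins (39480 bp), the bomanin pair on 3R (42233 bp), AttD (55111 bp), AttC (56277 bp), Mtk (59210 bp) and the diptericins (59299 bp). The last place rests on the pooled call, since among the best 2718 regions of list A or list B alone the diptericins had one 11085 or 10645 bp away. A best rank of at most 2718 and a peak within 20000 bp are the same event, so both orders split the clusters into the same 5 and 6. Def and Drs are neighbours by rank, and their orders in the single lists are not the same. The best candidate of each list's own within 20000 bp ranked 2599 in list A and 1218 in list B at Def. At Drs these ranks were 1957 and 1387. These are not always the pooled best region, which ranked 6666 in list A and 1897 in list B at Def, and 1957 and 3055 at Drs. Clusters with more genes were searched over more sequence, 48786 bp for the bomanins on 2R and 62070 bp for the drosomycin-like genes against 40001 bp for a single gene. By role, 11 of the 14 textbook Toll targets (Drs, Mtk and the bomanins) had a reproducible peak within 20000 bp (78.6%, interval 49.2 to 95.3%), as did 4 of the 6 drosomycin-like genes (66.7%, interval 22.3 to 95.7%). Of the 12 Imd targets 2 did (16.7%, interval 2.09 to 48.4%). The share of all protein-coding genes was 49.1%. Counted as clusters this was 2 of 4, 1 of 1 and 2 of 6, since 10 of the 11 are the bomanins that share the peaks at GstE3. The difference between the roles was not tested.

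**Figure D4:**
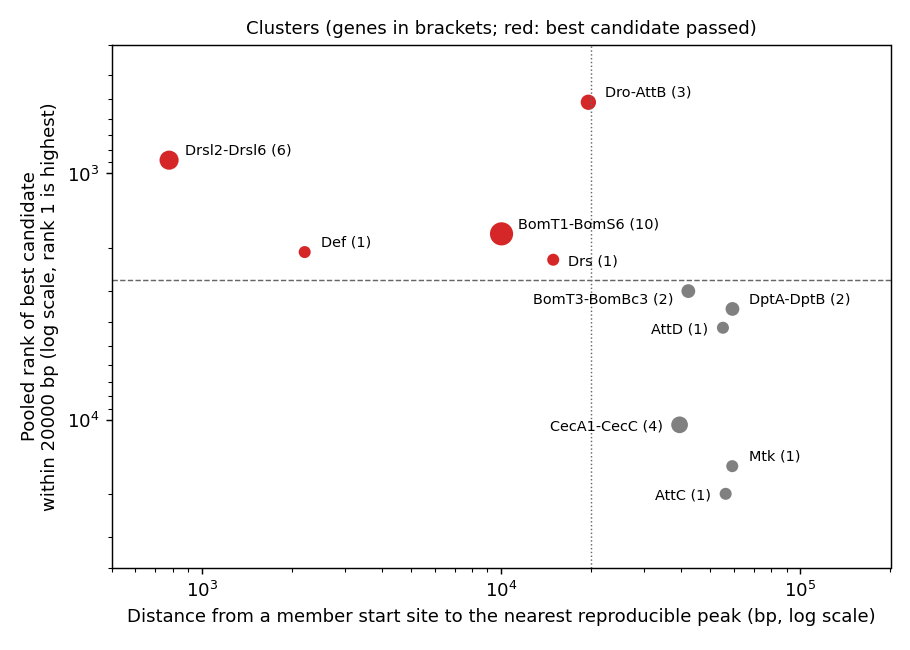
The 11 clusters are drawn by the distance from a member start site to the nearest reproducible peak (bp, log scale) and by the pooled rank of their best candidate within 20000 bp (log scale, inverted), with dot area growing with the number of genes, dashed at rank 2718 and dotted at 20000 bp. The 5 red clusters have their best candidate between ranks 514 and 2239, and the 6 grey ones between 3001 and 19950.

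Sequence letters of NF-kB, GATA and GAGA-binding factors were counted in the effector promoters and in the regions near them. A kappaB-like match (GGG and CC with 4 or 5 free bases between them, on either strand, overlaps counted) was found from 250 bp before to 50 bp after the start in 15 of 32 effector genes (46.9%) and in 20.6% of the 13968 protein-coding promoters. Mtk had 5 such matches, AttC and BomBc1 had 4 each, and Drs and all 6 drosomycin-like genes had 0. Sites lacking GGG and CC at this spacing are not counted, so a count of 0 does not show that kappaB sites are absent. With a narrower form, in which AAA or AT follows GGG and CC closes the 10 bases, matches remained at BomBc1 and BomS5, 2 of 32 (6.25%), against 2% of all promoters. GATAA was present in 25 of 32 (78.1%) against 55.1%, and GAGAG in 14 of 32 (43.8%) against 29.7%. A pooled candidate within 1000 bp was present at 8 of the 15 genes with a kappaB-like match and at 10 of the 17 without. In the 100 bp on either side of the summit, GAGAG was found in 5 of the 7 reproducible peaks near effector genes (71.4%) and in 76.3% of all reproducible peaks on the arms. The kappaB-like motif was found in 2 of the 7, both near Def, and in 18.5% of all. In the 18 candidates within 1000 bp of an effector gene, GATAA was found in 12 (66.7%), against 34.0% of all candidates on the arms, and the kappaB-like motif in 4 (22.2%), against 18%. The peaks beside Drsl1 and downstream of Drs had none of the motifs. These shares describe letters in fixed windows, and genes of 1 family share ancestry and therefore sequence.

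**Figure D5:**
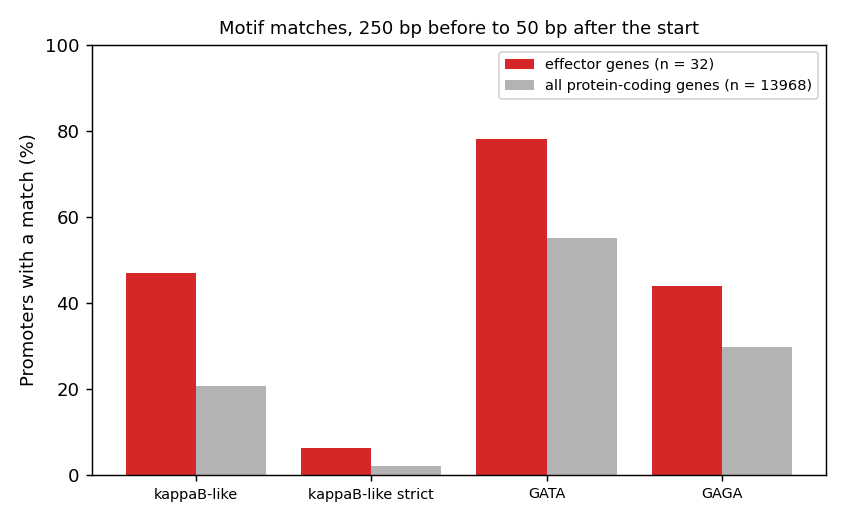
The percent of promoters (250 bp before to 50 bp after the start) with at least 1 match on either strand is drawn for 4 motifs in the 32 effector genes (red) and in all 13968 protein-coding genes (grey). Red bars stand at 46.9, 6.25, 78.1 and 43.8% against grey bars at 20.6, 2, 55.1 and 29.7%.

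Genes of the pathways that control these effectors were counted in the same lists. Of 22 upstream genes of the Toll and Imd pathways, 12 had a reproducible summit within 1000 bp of a start site (54.5%, interval 32.2 to 75.6%), where all protein-coding genes gave 10.8%. Within 5000 bp the count was 13 (59.1%, interval 36.4 to 79.3%) against 19.8%. Within 20000 bp it was 19 (86.4%, interval 65.1 to 97.1%) against 49.1%. No comparison with single-start genes was made for this list. The genes of the NF-kB factors were among the 12, with summits 39 bp from a start of dl, 49 bp from Rel and 66 bp from Dif. The kinase gene pll, the recognition gene PGRP-SA and the caspase gene Dredd had none within 20000 bp, with nearest reproducible summits 51970, 60021 and 20176 bp away. The difference between the lists was not tested.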

How the data were processed

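The deposited lists are narrowPeak-type region files in dm6: 2 candidate lists, each derived from 1 ChIP alignment and a control, 1 candidate list derived from both, and 1 thresholded by the irreproducible discovery rate, per the labels' description files. The authors' signal value per region (column 7) is as deposited and not normalised between lists, so it was used only to describe and rank regions within a list. The sources used here do not name the aligner, the caller, their versions or the threshold. The dm3 lists were not used here.

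Summits were taken as start plus offset, 1-based. Genes came from Ensembl release 115 (BDGP 6.54), without pseudogenes and transposable elements. Sequence came from the release 6 assembly (RefSeq), whose chromosome lengths hold all dm6 regions. A start site is the 5′ end of any transcript. Windows were 1000, 5000 and 20000 bp. Shares have exact Clopper-Pearson intervals (SciPy 1.17.1). A region matched a single list where its summit lay in a region of that list. Identity between gene bodies came from a global alignment (Biopython 1.88). The window, cluster and motif functions were tested on simulated data. No test was run on the gene list. The comparison with single-start genes was added after seeing the data. With 1 group there is no contrast between conditions. The genes, their roles and the lists were chosen with earlier results of these data known. All 32 members are named. Alternatives were a stricter threshold, region overlap, the gene record's start, other cluster gaps, a narrower motif and each single list.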

Additional observations from a re-analysis of the deposited data

How the results depend on the processing

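Of 36 alternatives to the counts and shares of effector genes, 31 stayed within 1.5 times the count or within the interval of the share. With each single list the number of genes with a peak within 1000 bp was 1 to 2. Restricting to peaks at or above the median signal gave 5 genes and 2 clusters with a peak within 20000 bp, and 1.35% of nearby candidates, where a stricter cut can only lower the values. The narrower kappaB-like motif gave 6.25%, again lower by construction. Cluster gaps of 10000 and 50000 bp gave 6 and 4 clusters with a peak. The nearest peak to the diptericins moved from 59299 bp to 11085 and 10645 bp with lists A and B, and that to Def from 2208 to 5916 bp with list A. Under the stricter threshold it moved to 23767 bp at Def, 34546 bp at Drs and 23004 bp at the bomanins on 2R. The cause was not tested for the single lists. The number of genes with a candidate within 1000 bp was 19 in list A and 13 in list B. No paired analysis was possible because there is 1 group and the lists carry no replicate numbers. Depth is unknown, so an absent region cannot be told from one below detection. Similar copies that share identical runs may limit what can be said at AttA, AttB, CecA1 and CecA2.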

Other observations

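A further 26 immune-related genes outside the effector list were chosen by name, Hml and LysX among them. Of these 26, 4 had a reproducible summit within 1000 bp of a start site (15.4%, 95% Clopper-Pearson interval 4.36 to 34.9%), against 10.8% of all protein-coding genes. They were Tep2 (60 bp) and Tep4 (85 bp), which encode thioester proteins, nec (90 bp), a serpin that restrains Toll signalling, and PGRP-LB (211 bp), an amidase that degrades peptidoglycan and dampens the Imd response. The peptidoglycan-recognition genes PGRP-SB1 and PGRP-SB2 lay 2869 and 4317 bp from the nearest reproducible summit. A pooled candidate lay within 1000 bp of 12 of the 26 (46.2%, interval 26.6 to 66.6%), near the 40.5% of all protein-coding genes. Among the induced peptide genes, Dso1, Dso2 and Listericin had one 962, 109 and 181 bp away, while the nearest lay 1624 bp from IBIN, 4952 bp from BaraA1, 5307 bp from IM18 and 9680 bp from BaraA2. The stress-induced Turandot genes TotA, TotB, TotC, TotX and TotZ had neither within 1000 bp, and TotM, on another arm, had a candidate 66 bp from its start.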
